A study of Rattus norvegicus with 125 samples.

Results

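Type I interferon-stimulated antiviral genes were followed in the organs of rats that had inhaled phosphine (PH3), a fumigant gas that blocks mitochondrial respiration, or air. The set holds 10 genes, Isg15, Ifit2, Ifit3, Mx1, Mx2, Oas1a, Rsad2, Bst2, Irf7 and Usp18, out of 13439 genes that the array names through at least 1 probe set with a single symbol. Members were taken by symbol: 12 of the array's 19069 single-symbol probe sets carry one of these names, and each gene was read from its probe set with the highest mean. Mx2 and Ifit2 each have a second probe set, described below.

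The series holds 125 Affymetrix arrays from 48 rat numbers, all adult male Sprague-Dawley rats that breathed the test atmosphere with the whole body exposed. The PH3 groups breathed 387 ppm over 40 min, 15480 ppm×min in all and called low in the labels, and the Air groups 0 ppm over the same time. Brain, heart and kidney were taken 1, 3, 6 and 24 h after exposure, and liver at 6 h, with PH3 livers alone also at 3 h. Lung samples date from 3 h, 24 h or 1 week. Groups had 4 rats, except for 3 PH3 and 2 Air rats in heart at 24 h, 2 Air rats in lung at 3 h, 3 PH3 rats in lung at 1 week and 3 PH3 rats in liver at 3 h. Every rat was killed under ketamine and xylazine, so both exposures share that treatment. The labels number the rats, and at 6 h they give PH3 rat 135 for brain and PH3 rat 134 for heart, kidney and liver.

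Type I interferons are secreted proteins that bind a receptor on nearly all nucleated cells and, through the kinases Jak1 and Tyk2, switch on transcription factors that bind interferon-stimulated response elements in promoters. The genes so switched on block virus entry, replication and release, and many are also transcribed at a low level without infection. In the set, Isg15 is a ubiquitin-like modifier and Usp18 the protease that removes it and also damps receptor signalling. Ifit2 and Ifit3 bind foreign RNA or its complexes, Mx1 and Mx2 are dynamin-like GTPases that trap viral particles, and Oas1a makes the oligoadenylate that activates RNase L. Rsad2 (viperin) makes a chain-terminating nucleotide, Bst2 (tetherin) holds budding virions at the membrane, and Irf7 is the transcription factor that amplifies interferon production. These roles were worked out mainly in human and mouse cells.

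RefSeq promoter sequences (GRCr8, 250 bases before to 50 bases after the start) were at hand for 6 of the 10 members, Irf7, Ifit3, Rsad2, Mx1, Oas1a and Bst2. The letters GAAA, any 2 bases and GAAA again, the core of an interferon-stimulated response element, were searched on both strands, and 5 of the 6 promoters hold them, against 3.92% of all 33469 promoters in the same table. Mx1 has no match in this window, and of 54 promoter entries for other interferon-stimulated genes 28 have one. The 5 stretches are shown because they are what these genes share in sequence. Capitals mark the motif, which reads TTTC, 2 bases and TTTC where it lies on the opposite strand, and in Oas1a and Bst2 2 overlapping matches form 1 run.
Irf7 promoter, chr1:205800053-205800122, minus strand: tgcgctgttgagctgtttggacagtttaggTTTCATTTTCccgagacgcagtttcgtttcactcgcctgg
Ifit3 promoter, chr1:241527252-241527321, plus strand: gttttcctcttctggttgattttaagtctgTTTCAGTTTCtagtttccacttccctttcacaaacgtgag
Rsad2 promoter, chr6:48788228-48788297, minus strand: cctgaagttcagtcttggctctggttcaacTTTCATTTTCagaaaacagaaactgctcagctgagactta
Oas1a promoter, chr12:41330395-41330465, plus strand: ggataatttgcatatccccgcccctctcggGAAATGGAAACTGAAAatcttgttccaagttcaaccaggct
Bst2 promoter, chr16:18255053-18255128, minus strand: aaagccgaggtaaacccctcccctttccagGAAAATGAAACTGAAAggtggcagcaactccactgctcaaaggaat
The matches begin 69 bases before the start in Irf7, 44 in Ifit3, 147 in Rsad2, 41 in Oas1a and 131 in Bst2. A match is a description of the letters and does not show that a factor binds there.

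Signals are log2 values, so a difference of 1 is a factor of 2, and they ran from 2.60 to 14.41 with array medians of 5.08 to 5.52. The mean of each organ's marker genes was highest in its own organ (for example 10.14 to 10.55 for 6 brain markers in brain, at most 5.62 in the other organs). Arrays correlated with the others of their group at a median r of 0.953 to 0.993, lowest in lung of Air rat 84 at 24 h. Levels below are means ± SD of n rats. Changes are PH3 minus Air with their limma standard errors, and Benjamini-Hochberg adjustment ran over all 13439 genes with 0.05 as the threshold. In whole tissue, fewer cells of a type and less RNA per cell cannot be told apart.

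At 6 h the antiviral genes were at a lower level in PH3 than in Air rats in most gene and organ combinations. The median change of the 10 members was -0.64 in heart, -0.64 in kidney, -0.69 in liver and -0.34 in brain, beside all-gene medians of -0.01, 0.02, 0.01 and 0.01 in the same order. The sign was negative for 10 of 10 members in heart and for 9 of 10 in kidney, liver and brain each. The share of all genes with a negative sign was 53.0% in heart, 45.2% in kidney, 48.5% in liver and 48.1% in brain. The changes of 2 members passed the threshold, those of Usp18 and Bst2 in heart. Other settings gave 4 members in heart (the dimmest genes dropped, or arrays centred), 5 in heart (array weights), 1 in kidney (array weights) or 3 in liver (livers of 6 h alone). The count of all genes called also moved with the setting, and is given as a range over the settings, not for each one. It ran from 54 to 751 in heart, 0 to 103 in kidney and 1 to 161 in liver. The 32 arrays of these organs come from 9 rats, so the organs are not 4 independent observations. The members were chosen with earlier results of these data known. The shares of all genes given beside them at 6 h are therefore descriptions and not separate support.

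**Figure D1:**
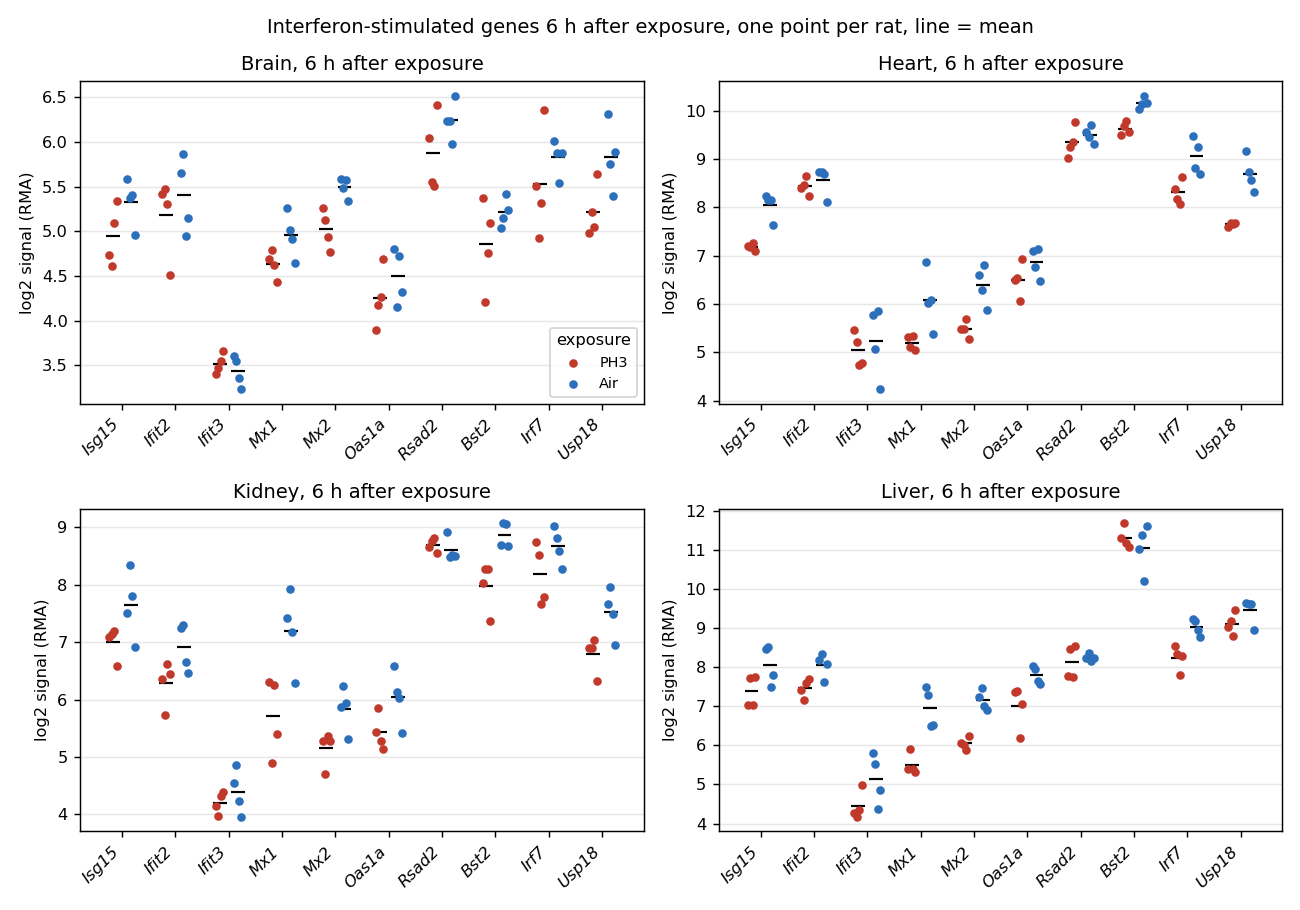
Log2 signal of the 10 members 6 h after exposure in brain, heart, kidney and liver, 1 point per rat with PH3 left of Air, and a line at the mean of each group of 4. In heart the PH3 points of Usp18, Isg15, Mx1, Mx2, Irf7 and Bst2 lie below all Air points, while Rsad2 and Ifit2 overlap.

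In heart, 2 of 10 members fell, against 2.7% of all genes called in either direction and 1.29% called lower. Usp18, the Isg15 protease, read 7.60, 7.68, 7.66 and 7.67 in the PH3 hearts, against 9.16, 8.73, 8.56 and 8.31 in the Air hearts. The PH3 values lay close together and all below the lowest Air value. Usp18 averaged 7.65 ± 0.04 in PH3 and 8.69 ± 0.36 in Air hearts (SD, n = 4 each), a change of -1.04 ± 0.17 or 2.05-fold lower (limma adjusted p = 0.00083).

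Bst2, the tether of budding virions, read 9.49, 9.68, 9.79 and 9.56 in PH3 hearts, against 10.03, 10.13, 10.31 and 10.16 in Air hearts. The groups did not overlap, and the change was -0.53 ± 0.13, or 1.44-fold lower (adjusted p = 0.0253). This call depended on single arrays: it was lost without PH3 rat 128 (adjusted p = 0.0515) or 141 (0.0926), and without Air rat 132 (0.0557), 138 (0.0989) or 156 (0.0661). That of Usp18 was kept in each of the 8 fits that left out 1 heart.

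The modifier Isg15 missed the threshold by little. It read 7.20, 7.17, 7.26 and 7.11 in PH3 hearts, against 8.24, 8.15, 8.16 and 7.63 in Air hearts, a change of -0.86 ± 0.25 (adjusted p = 0.0561). The PH3 hearts again lay close together and under every Air heart, of which rat 156 was the lowest.

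Among the GTPases, Mx2 read 5.48, 5.49, 5.68 and 5.28 in PH3 hearts, against 6.59, 6.29, 6.81 and 5.89 in Air hearts (change -0.91 ± 0.26, adjusted p = 0.0533). Mx1 averaged 5.20 ± 0.14 in PH3 and 6.09 ± 0.61 in Air hearts (SD, n = 4 each), with a change of -0.89 ± 0.33 (adjusted p = 0.15). For both, no PH3 heart reached an Air heart.

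The transcription factor Irf7 averaged 8.31 ± 0.24 in PH3 and 9.06 ± 0.36 in Air hearts (SD, n = 4 each), a change of -0.75 ± 0.23 (adjusted p = 0.081), also without overlap. The 4 other members overlapped between the groups, with changes of -0.36 ± 0.27 for Oas1a, -0.18 ± 0.33 for Ifit3, -0.16 ± 0.23 for Rsad2 and -0.12 ± 0.18 for Ifit2 and adjusted p of 0.606 to 0.887. In all, 6 of 10 members had every PH3 heart below every Air heart, a pattern seen in 5.72% of all genes.

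The mean of the members was less spread among PH3 than among Air hearts, a difference in spread that was not tested. Singly, Oas1a, Rsad2 and Bst2 had the larger SD in PH3 hearts. The mean per heart was 7.29, 7.28, 7.26 and 7.30 in PH3 rats 128, 134, 140 and 141, against 8.15, 7.82, 8.06 and 7.42 in Air rats 126, 132, 138 and 156. The 2 groups did not overlap, and Air rat 156 stood nearest to the PH3 rats.

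In kidney, 0 of 10 members passed, beside 0.126% of all genes, and 6 had an unadjusted p under 0.05, as had 7.78% of all genes. Mx1 had the largest difference of the set, with 6.30, 4.90, 6.25 and 5.40 in PH3 kidneys, against 7.43, 7.93, 7.17 and 6.29 in Air kidneys. The change was -1.49 ± 0.46, a factor of 2.81, but the groups touched at one Air rat (156) and the adjusted p was 0.269. Both exposures entered this difference. Set against the mean of 1 h and 3 h, Mx1 at 6 h differed by 0.67 ± 0.39 in Air kidneys (limma adjusted p = 0.619). In PH3 kidneys it differed by -0.48 ± 0.39 (adjusted p = 0.961).

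Bst2 was the single member without overlap in kidney, where 2.37% of all genes had every PH3 array below every Air array. It read 8.04, 8.27, 8.27 and 7.37 in PH3 kidneys, against 8.69, 9.07, 9.06 and 8.68 in Air kidneys (change -0.89 ± 0.22, adjusted p = 0.12). Usp18 averaged 6.79 ± 0.32 in PH3 and 7.52 ± 0.43 in Air kidneys (SD, n = 4 each; change -0.73 ± 0.22, adjusted p = 0.262). The differences of Mx2, Isg15, Ifit2, Oas1a and Irf7 lay between -0.68 and -0.49 without passing, and the nucleotide-making Rsad2 was at 8.70 ± 0.11 in PH3 and 8.61 ± 0.21 in Air kidneys. Rsad2 and Ifit3 had the smallest differences in kidney, as Ifit2 and Rsad2 had in heart.

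In liver, 0 of 10 members passed, beside 0.238% of all genes, and 4 of 10 members (Mx1, Mx2, Irf7 and Oas1a) had every PH3 liver below every Air liver, beside 3.91% of all genes. Mx1 read 5.39, 5.92, 5.40 and 5.33 in PH3 livers, against 7.51, 7.28, 6.5 and 6.53 in Air livers, a change of -1.45 ± 0.36 (adjusted p = 0.0962). Mx2 read 6.07, 6.01, 5.89 and 6.24 in PH3 livers, against 7.25, 7.47, 7.0 and 6.90 in Air livers (change -1.10 ± 0.29, adjusted p = 0.11). The lowest Air liver was above the highest PH3 liver by more than the whole PH3 range of Mx2.

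Irf7 averaged 8.24 ± 0.31 in PH3 and 9.04 ± 0.21 in Air livers (SD, n = 4 each; change -0.80 ± 0.26, adjusted p = 0.174). Bst2 had the opposite sign in liver, at 11.31 ± 0.27 in PH3 and 11.07 ± 0.62 in Air livers (change 0.25 ± 0.24, adjusted p = 0.693), and turned to -0.04 without Air rat 138. With the 8 livers of 6 h fitted alone, without the 3 PH3 livers of 3 h, Mx1 (adjusted p = 0.0322), Mx2 (0.0162) and Irf7 (0.0418) passed. The liver call thus rests on which arrays give the spread, and the share of all genes called in that fit is not given here.

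In brain, 0 of 10 members passed, beside 0.00744% of all genes. Mx2 read 5.26, 5.12, 4.94 and 4.77 in PH3 brains, against 5.59, 5.49, 5.57 and 5.34 in Air brains, without overlap (change -0.47 ± 0.12, adjusted p = 0.43). It was the single member so separated, as were 0.885% of all genes. Usp18 averaged 5.22 ± 0.30 in PH3 and 5.84 ± 0.38 in Air brains (SD, n = 4 each; change -0.62 ± 0.23). Ifit3 was below the 25th percentile of the array in all 32 brains.

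Whether the exposure effect differed between organs was asked by a limma F test at each time. At 6 h, over brain, heart, kidney and liver, 0 members passed, beside 1.76% of all genes, and the smallest adjusted p was that of Bst2 (0.21). At 1 h, 3 h and 24 h, over brain, heart and kidney, 0 members passed, beside 0.0521%, 0.134% and 0.0149% of all genes. A size of effect that differed between organs was therefore not shown for any member.

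The rest of the pathway was read from lists of other genes. Of 44 measured interferon-stimulated genes outside the set, 3 fell and 1 rose in heart at 6 h. Of all 13439 genes, 173 were called lower and 190 higher there. Those that fell were Rtp4, a Golgi chaperone induced by interferon (-0.87 ± 0.24, adjusted p = 0.0436), Ube2l6, the Isg15-conjugating enzyme (-0.66 ± 0.18, adjusted p = 0.0381), and the secreted glycoprotein Lgals3bp (-0.50 ± 0.13, adjusted p = 0.0339). Ifitm1, a membrane protein that blocks virus entry, rose by 0.80 ± 0.15 (adjusted p = 0.00247). The median change of the 44 genes at 6 h was -0.32 in heart, -0.30 in kidney, -0.34 in liver and -0.18 in brain. The sign was negative in 37, 39, 41 and 33 of 44 in that order, and at 6 h 0 passed outside heart. Of the same genes, Uba7 fell in lung at 3 h, without overlap with the 2 Air rats (-1.08 ± 0.23, adjusted p = 0.0437).

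The upstream steps were read in the same way. At 6 h, 0 of 15 virus sensors and adaptors, 0 of 4 measured interferons and 0 of 12 genes of the receptor and its signal transducers passed in brain, heart, kidney or liver. Their list medians lay between -0.14 and 0.04 in these organs. In liver the mean of the receptor list did not overlap, at 8.03 to 8.10 in PH3 and 8.13 to 8.24 in Air, nor did that of the sensors, at 6.55 to 6.67 in PH3 and 6.67 to 6.79 in Air. The interferon list lay at 3.50 to 3.6 in PH3 and 3.63 to 3.69 in Air hearts. In all 4 organs its mean was below the 25th percentile of every array (3.79 to 4.01), where a fall would be hard to see. Of 18 genes of the interferon-gamma and antigen-presentation list, 1 fell in heart at 6 h, the immunoproteasome subunit Psmb9 (-0.57 ± 0.15, adjusted p = 0.0388). Of all genes, 1.29% were called lower there. The list medians at 6 h were -0.12 in heart, -0.21 in kidney, -0.12 in liver and -0.02 in brain. Irf1, of the same list, fell in heart at 3 h, with overlap (-0.54 ± 0.12, adjusted p = 0.0427).

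Markers of blood and vessel cells were read beside these values, each list as its mean log2 signal per array at 6 h. In heart the 8 pan-leukocyte genes lay at 6.79 to 7.12 in PH3 and 6.68 to 6.88 in Air, and the 13 macrophage genes at 7.58 to 8.0 in PH3 and 7.65 to 7.69 in Air. The macrophage genes C1qb (0.56 ± 0.15, adjusted p = 0.0397) and Lyz2 (0.36 ± 0.09, adjusted p = 0.0295) rose there, and over the 13 genes 9 had a positive and 4 a negative sign. The part of these cells in the heart values was not tested. The 9 neutrophil genes lay at 4.59 to 5.37 in PH3 and 4.38 to 4.66 in Air hearts, the 13 T and NK cell genes at 4.60 to 4.86 in PH3 and 4.43 to 4.88 in Air, and the 9 endothelial genes at 9.65 to 9.91 in PH3 and 9.53 to 9.67 in Air.

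Other lists were also read in the hearts of 6 h. The 11 glucocorticoid-responsive genes lay at 9.75 to 10.30 in PH3 and 9.29 to 9.38 in Air hearts, without overlap, and 2 of 11 rose, the metallothionein Mt2A (2.67 ± 0.46, adjusted p = 0.00123) and the kinase Pdk4 (1.63 ± 0.16, adjusted p = 1.25e-06). Of all 13439 genes, 190 were called higher in the hearts of 6 h. The glucocorticoid list was also higher in PH3 hearts without overlap at 1 h, 3 h and 24 h. At 1 h it lay at 9.64 to 10.07 in PH3 and 8.887 to 9.115 in Air hearts. The 6 brain markers lay at 4.21 to 5.64 in PH3 and 3.97 to 4.25 in Air hearts at 6 h, with overlap. The part of these lists in the heart values was not tested.

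In kidney 3 of the leukocyte lists lay lower in PH3, with overlap. The pan-leukocyte genes lay at 5.93 to 6.75 in PH3 and 6.49 to 7.27 in Air kidneys, the macrophage genes at 6.60 to 7.15 in PH3 and 6.97 to 7.87 in Air, and the T and NK cell genes at 4.12 to 4.46 in PH3 and 4.35 to 5.03 in Air. Of the macrophage genes 1 of 13 fell, Aif1 (-1.02 ± 0.20, adjusted p = 0.0354), beside 0.126% of all genes called in either direction. The median change of the 8 pan-leukocyte genes was -0.40. The neutrophil genes lay at 4.19 to 4.51 in PH3 and 4.09 to 4.38 in Air kidneys, with a median change of -0.01. The part of these lists in the kidney values was not tested.

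In liver the pan-leukocyte genes lay at 6.68 to 6.94 in PH3 and 6.75 to 7.17 in Air, and the macrophage genes at 8.71 to 8.82 in PH3 and 8.68 to 9.10 in Air. The neutrophil genes lay higher in PH3 livers without overlap, at 4.63 to 4.85 in PH3 and 4.32 to 4.59 in Air, and their part in the liver values was not tested. In brain the same lists lay at 5.62 to 5.91 in PH3 and 5.66 to 5.97 in Air, and at 6.35 to 6.52 in PH3 and 6.31 to 6.57 in Air. Lists of B cells (5 genes), plasmacytoid dendritic cells, the main interferon-producing cell of blood (3 genes), and red cells (3 genes) had 0 members past the threshold at 6 h in the 4 organs. The difference between 3' and 5' probe sets of beta-actin, a sign of RNA integrity, ran from 1.72 to 2.24 in PH3 and 1.84 to 2.17 in Air hearts, and overlapped in the other 3 organs too. For GAPDH it ran from 0.34 to 0.64 in PH3 and 0.19 to 0.44 in Air hearts. In livers it ran from 0.86 to 1.31 in PH3 and 0.71 to 0.93 in Air. Both lay higher in PH3 with overlap, and the part of RNA integrity in the values was not tested.

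At the other times no member passed the threshold. In brain 0 of 10 passed at 1 h, 3 h and 24 h, beside 0.00744%, 0.00744% and 0.0298% of all genes. In heart 0 passed at 1 h, 3 h and 24 h, beside 0.0521%, 0.238% and 0% of all genes. In kidney 0 passed at 1 h, 3 h and 24 h, beside 0.223%, 0.104% and 0.0149%, and in lung 0 passed at 3 h, 24 h and 1 week, beside 0.298%, 0% and 0%. Across these 12 comparisons the median change of the members ran from -0.31 in kidney at 1 h to 0.23 in lung at 1 week, and the smallest adjusted p of any member was 0.255, for Oas1a in heart at 3 h.

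Kidney at 24 h also had a negative sign in 10 of 10 members, beside 48.6% of all genes, with a median of -0.23. Usp18 read 6.61, 6.74, 7.06 and 7.14 in PH3 kidneys, against 7.40, 7.21, 7.35 and 7.43 in Air kidneys, without overlap (change -0.46 ± 0.22, adjusted p = 1.0). Rsad2 differed there by -0.46 ± 0.17 with overlap, and 2 of 10 members had an unadjusted p under 0.05, beside 2.37% of all genes. In kidney at 1 h every PH3 value of Rsad2 lay below every Air value, with 8.35 ± 0.16 in PH3 and 8.62 ± 0.16 in Air (SD, n = 4 each; adjusted p = 0.554). At each of these times it was 1 member of 10 that was so separated. The share of all genes so separated was counted at 6 h only, so these separations have no baseline.

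**Figure D2:**
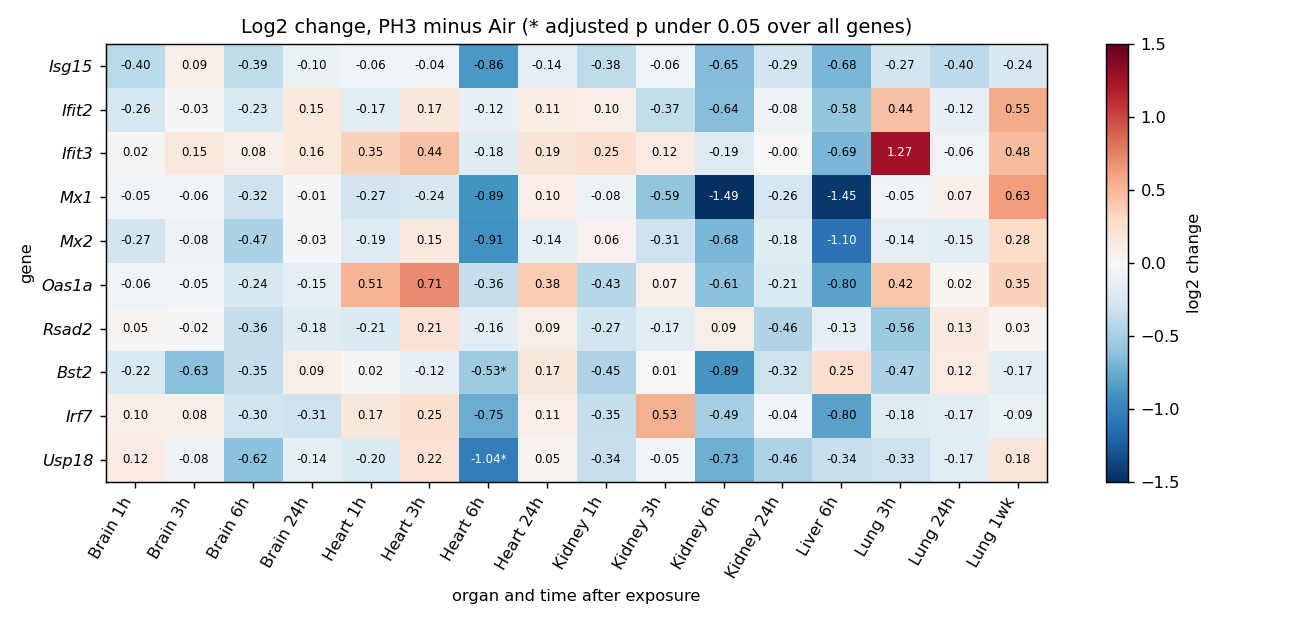
Log2 change, PH3 minus Air, of the 10 members (down the page) in the 16 comparisons of organ and time, with an asterisk where the adjusted p over all genes was under 0.05. Blue, for lower in PH3, is concentrated in the 4 columns of 6 h, where 2 cells carry an asterisk, Usp18 and Bst2 in heart.

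Before 6 h, Oas1a in heart and Ifit3 in lung had positive differences that did not pass. The oligoadenylate synthetase Oas1a read 7.17, 7.11, 6.91 and 6.93 in PH3 hearts at 3 h, against 6.25, 7.09, 6.53 and 5.42 in Air hearts (change 0.71 ± 0.27, adjusted p = 0.255). The PH3 hearts were close together and the Air hearts widely spread, with an overlap at Air rat 108. In lung at 3 h, Ifit3 read 6.18, 6.70, 4.92 and 6.97 in PH3 rats, against 5.32 and 4.53 in the 2 Air rats, the largest positive value of any member in the 16 comparisons (change 1.27, adjusted p = 0.444). One of the 4 PH3 lungs fell within the Air range.

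The hearts of 6 h were also set against earlier hearts of the same exposure, as 6 h minus the mean of 1 h and 3 h. Each time came from different rats. The contrast was chosen with the lower 6 h values known and reuses the same hearts of 6 h, so it is not separate support. In PH3 hearts 5 of 10 members were lower at 6 h, beside 6.82% of all genes in either direction and 1.72% that were lower. These were Usp18 (-0.99 ± 0.15, adjusted p = 0.000118), Irf7 (-0.88 ± 0.20, adjusted p = 0.00731), Isg15 (-0.83 ± 0.21, adjusted p = 0.0177), Mx2 (-0.73 ± 0.22, adjusted p = 0.0471) and Bst2 (-0.46 ± 0.11, adjusted p = 0.0141). In Air hearts 0 of 10 passed, beside 0% of all genes, and the median change of the members was 0.16, against -0.56 in PH3 hearts.

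Usp18 averaged 8.61 ± 0.24 at 1 h, 8.68 ± 0.36 at 3 h, 7.65 ± 0.04 at 6 h (SD, n = 4 each) and 8.31 ± 0.23 at 24 h (SD, n = 3) in PH3 hearts. In Air hearts it averaged 8.81 ± 0.17, 8.46 ± 0.28 and 8.69 ± 0.36 at 1, 3 and 6 h (SD, n = 4 each) and 8.26 ± 0.06 at 24 h (SD, n = 2). The exposures overlapped at 1 h, 3 h and 24 h. The exposure effect on Usp18 differed between the 4 times (limma F test, adjusted p = 0.0408), making it the 1 member of 10 that passed in heart, beside 0.268% of all genes. That call was lost in 20 of the 29 fits that left out 1 heart, with adjusted p up to 0.12 without Air rat 126. In brain, kidney and lung 0 members passed this test, beside 0% of all genes in each.

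The calls within PH3 hearts also depended on single arrays. Without PH3 rat 141 of 6 h, 2 members passed instead of 5, Usp18 and Irf7, and Mx2 lost its call in 9 of the 12 fits without 1 heart. In kidney 0 members passed in PH3, beside 0.104% of all genes, and 0 in Air, beside 0%. Their median was -0.37 in PH3 kidneys and 0.10 in Air kidneys, and Bst2 had the smallest adjusted p (-0.75 ± 0.19 in PH3 kidneys, adjusted p = 0.161). In brain 0 members passed in PH3 or in Air, beside 0% of all genes in each.

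**Figure D3:**
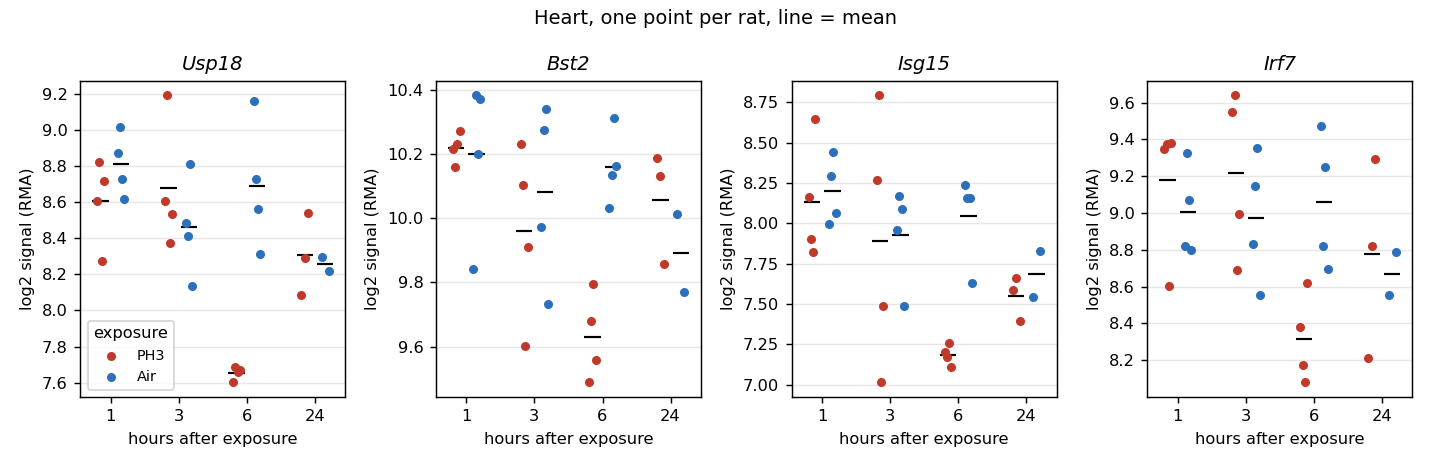
Log2 signal of Usp18, Bst2, Isg15 and Irf7 in heart at 1, 3, 6 and 24 h after exposure, 1 point per rat with PH3 left of Air and a line at the group mean. The 4 PH3 hearts of 6 h are the lowest PH3 points in Usp18, and at 24 h the groups (3 PH3 and 2 Air rats) overlap for each of these genes.

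The level of each member in the organs of Air rats was read from 1 probe set over all times, and the order of the organs above brain differed between members. All 10 members were lowest in brain, and for 8 of them, all but Mx1 and Mx2, no Air brain reached the lowest Air array of the next organ. Bst2 averaged 5.57 ± 0.47 in brain (SD, n = 16), 8.88 ± 0.28 in kidney (SD, n = 16), 10.11 ± 0.22 in heart (SD, n = 14), 11.02 ± 0.39 in lung (SD, n = 10) and 11.07 ± 0.62 in liver (SD, n = 4). Brain, kidney and heart were separate for Bst2, and lung overlapped with liver.

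Usp18 averaged 5.81 ± 0.34 in brain (SD, n = 16), 7.41 ± 0.31 in kidney (SD, n = 16), 8.47 ± 0.41 in lung (SD, n = 10), 8.60 ± 0.31 in heart (SD, n = 14) and 9.46 ± 0.34 in liver (SD, n = 4), with overlap between each neighbour above brain. Irf7 and Isg15 had the same order, brain, kidney, heart, liver and lung, with 5.93 ± 0.27 in brain and 9.53 ± 0.28 in lung for Irf7 and 5.22 ± 0.29 in brain and 8.62 ± 0.26 in lung for Isg15 (SD, n = 16 brains and 10 lungs). Rsad2 and Ifit2 were highest in heart, at 9.39 ± 0.22 and 8.36 ± 0.29 (SD, n = 14), and Mx2, Ifit3, Oas1a and Bst2 in liver. Of Mx2, the brain (5.41 ± 0.12) and kidney (5.54 ± 0.30) did not differ beyond their spread. Whether all organs were normalised together is not given in the sources used here, which limits these comparisons.

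Rats of 1 group differed from each other in these genes. To ask whether the same rat deviated alike in several organs, apart from exposure and time, each value was taken as its deviation from the mean of its group, and 2 organs were correlated over the rats they share. Over the 27 rats with heart and kidney, all 10 members had a positive r, with a median of 0.43, beside 0.06 for all genes, whose 5th and 95th percentiles were -0.32 and 0.45. The medians were 0.32 for brain and heart (28 rats), 0.11 for brain and kidney (30), 0.52 for brain and liver (10), 0.49 for heart and liver (11) and 0.58 for kidney and liver (11), beside 0.01, -0.05, 0.03, 0.09 and 0.16 for all genes. No lung pair shared enough rats.

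The permutation test of single genes called 0 of 10 members in any of the 6 organ pairs (two-sided, 100000 permutations of rats within groups, adjusted over all genes). All genes were called at 0.246% for brain and heart, 0.246% for brain and kidney, 0% for brain and liver, 0.253% for heart and kidney, and 0% for heart and liver and for kidney and liver. Members with an unadjusted p under 0.05 numbered 3, 0, 0, 4, 1 and 4 in the 6 pairs in this order. Of all 13439 genes, 874, 1343, 772, 912, 915 and 923 were under the same cut. The members are correlated with each other, so their r values in a pair are not separate observations.

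Mx2 had the highest heart and kidney agreement of the set, with Pearson's r = 0.69 (permutation p = 0.00298, adjusted p = 0.288) and Spearman's rho = 0.55 (permutation p = 0.0312). It kept r = 0.58 without the 2 rats farthest from the median in heart, and was 0.77 in PH3 and 0.58 in Air rats alone. Usp18 had r = 0.55 (permutation p = 0.0181, adjusted p = 0.573) and rho = 0.54 (permutation p = 0.013), with r = 0.59 in PH3 and 0.52 in Air rats and 0.53 without the 2 farthest rats. For both, r was positive in exposed and in unexposed rats. Whether r differed between exposures was not tested.

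Irf7 was the member that agreed most between brain and heart, with r = 0.58 (permutation p = 0.00492, adjusted p = 0.444) and rho = 0.57 (permutation p = 0.00508). The r was 0.70 in PH3 and 0.37 in Air rats, and 0.51 without the 2 farthest rats. In kidney and liver, Ifit2 had r = 0.84 (permutation p = 0.0158, adjusted p = 0.646) and rho = 0.89 (permutation p = 0.00447) over 11 rats. Bst2 had r = 0.28 in heart and kidney, and r of -0.15 in brain and heart, -0.14 in brain and kidney, -0.25 in brain and liver, -0.21 in heart and liver and -0.03 in kidney and liver.

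The agreement of Rsad2 between brain and heart rests largely on 2 rats. It had r = 0.56 there (permutation p = 0.0875, adjusted p = 0.818) and rho = 0.32 (permutation p = 0.205), and r fell to 0.18 without PH3 rats 70 and 85. Between heart and kidney r of Rsad2 was 0.59 and fell to 0.26 without these 2 rats. In Air rats alone, which include neither, it was 0.58. PH3 rat 70 at 24 h read 5.45 in brain, 8.62 in heart, 7.98 in kidney and 8.21 in lung, below the other PH3 rats of 24 h in every organ, whose lowest values were 6.00, 9.38, 8.52 and 9.13. PH3 rat 85 of the same group read 6.95 in brain, 10.13 in heart and 9.09 in kidney, above the others, whose highest values were 6.27, 9.38 and 8.56. Rsad2 was thus low in 4 organs of one rat and high in 3 organs of another at the same time after the same exposure.

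**Figure D4:**
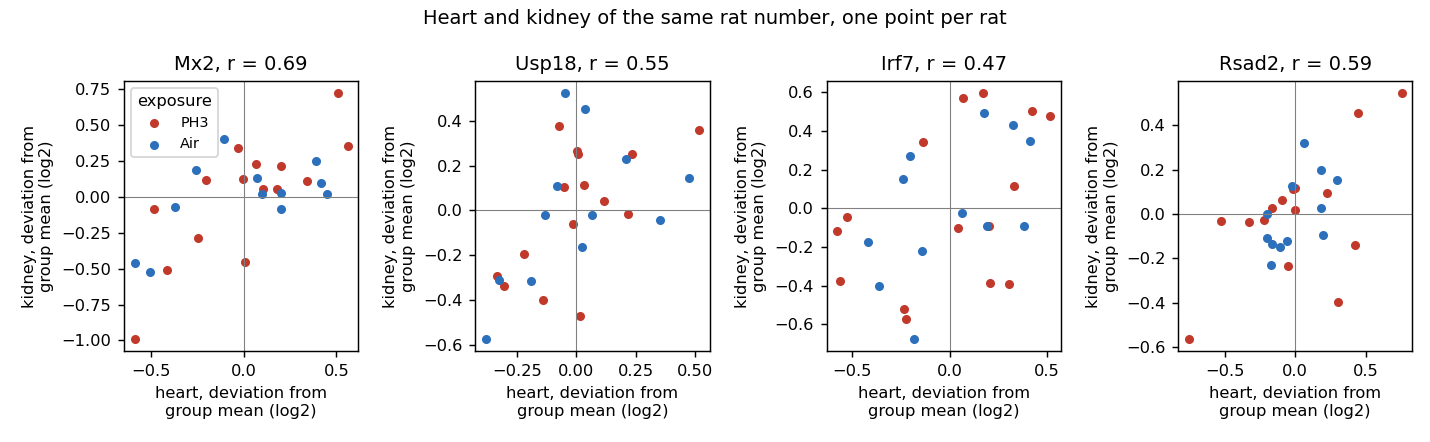
Deviation from the group mean (log2) of Mx2, Usp18, Irf7 and Rsad2 in heart (x axis) and kidney (y axis), 1 point for each of 27 rats, PH3 and Air in separate colours. Mx2 and Usp18 run along the diagonal in both exposures, and r of Rsad2 drops to 0.26 without rats 70 and 85. In Air rats alone r of Rsad2 is 0.58.

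A separate pattern by rat came from the second probe set of Mx2, which was not used above. On 118 of 125 arrays it read 2.98 to 3.78, and on 7 arrays 4.98 to 8.51. These 7 are all the arrays of 3 rats. PH3 rat 115 of 1 h read 4.98 in brain, 5.54 in heart and 4.99 in kidney, PH3 rat 142 of 1 week 8.51 in lung, and Air rat 84 of 24 h 5.23 in brain, 5.01 in heart and 6.91 in lung. Both exposures are among them, and the other 45 rats have no array above 3.78.

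The probe set of Mx2 used above read 5.25, 5.75 and 4.98 in the same brain, heart and kidney of rat 115. In lung of rat 142 it read 7.51, the highest of the 3 PH3 lungs of 1 week (the others 6.34 and 6.35), so both probe sets were high there. In rat 84 it read 5.41 in brain, 5.95 in heart and 6.08 in lung, and that lung was the lowest of the 4 Air lungs of 24 h, whose others read 6.89 to 7.62. At 6 h the second probe set differed between PH3 and Air by -0.02 in brain, 0.12 in heart, 0.20 in kidney and 0.20 in liver, near the bottom of the scale, where the first differed by -0.47, -0.91, -0.68 and -1.10. For Ifit2 the second probe set gave -0.17 in brain, -0.17 in heart, -0.71 in kidney and -0.64 in liver, against -0.23, -0.12, -0.64 and -0.58 for the first.

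**Figure D5:**
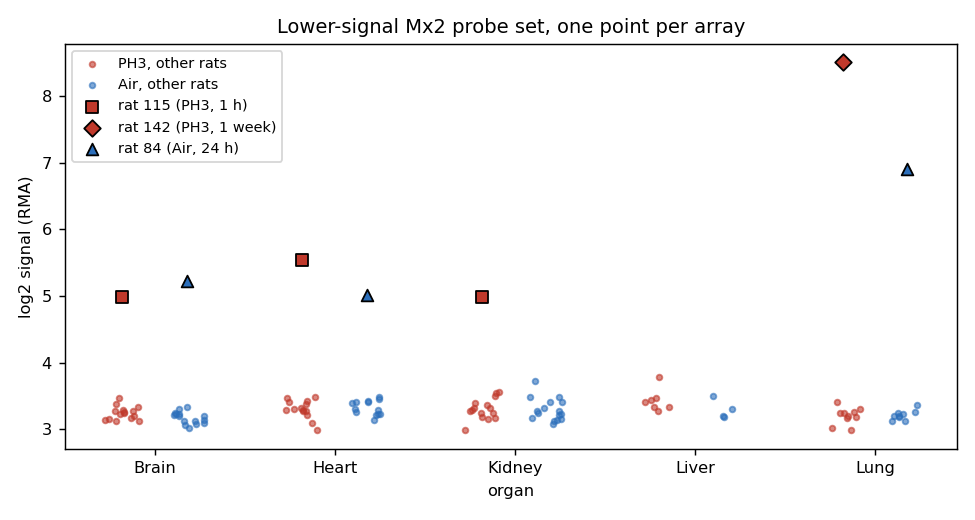
Log2 signal of the lower-signal Mx2 probe set on every array, by organ, with PH3 left of Air. The arrays of PH3 rats 115 and 142 and Air rat 84 (large symbols) lie at 4.98 to 8.51, and all others at 2.98 to 3.78.

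The members also varied together within groups, least so in brain. Over the 45 pairs of members, the median correlation of deviations from the group mean was 0.43 in heart (29 arrays), 0.40 in kidney (32), 0.69 in liver (11), 0.41 in lung (21) and 0.16 in brain (32). For a background set of genes the median was 0.03 in heart, 0.05 in kidney, 0.00 in liver, 0.08 in lung and 0.06 in brain. Mx1, Oas1a and Ifit3 were below the array median on all 32 brain arrays, and the part of low signal in the brain value was not tested. Arrays of a pair share array-wide effects, so these values are descriptions.

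Of the genes outside the set, those most alike in brain, heart and kidney were Dtx3l, Ddx60, Slfn4, RT1-S3, Acss1 and Rtp4, by the median of their correlations with the mean deviation of the members (0.74, 0.64, 0.64, 0.58, 0.55 and 0.55, beside 0.00 for all genes). Dtx3l, a ubiquitin ligase, had r = 0.40 in brain, 0.74 in heart and 0.80 in kidney over 32, 29 and 32 arrays. Rtp4 had r = 0.52, 0.84 and 0.55 in the same organs, and 0.87 in liver and 0.88 in lung, which did not enter the choice. Acss1, a mitochondrial acetyl-CoA synthetase, had -0.49 in lung. Of these 6 genes only Rtp4 passed in a comparison of 6 h, in heart as given above.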

How the data were processed

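RNA of whole organs was hybridised to Affymetrix 3' expression arrays, 1 array per organ and rat. The deposited values are log2 signals per probe set, made by the authors with RMA, and Affymetrix Expression Console and Partek are also named, per the submitters' processing notes; versions, and which arrays were normalised together, are not given in the sources used here. Of 31139 probe sets, 11498 have no symbol in the platform annotation and 572 have several, and these were not used.

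Groups came from the labels, with separate rats as replicates. For each organ, limma 3.58.1 in R 4.3.3 fitted group means over all its arrays with a trended empirical Bayes step. PH3 was set against Air at each time, p-values were adjusted by Benjamini-Hochberg over 13439 genes, and F tests compared the effect between times and between organs. Agreement between organs used Python 3.11.15 with 100000 permutations of rats within groups. Members, gene lists and the contrast of 6 h with 1 h and 3 h were chosen with earlier results of these data known. The named genes are the 10 members, up to 6 per list that passed, and the 6 most alike genes. Alternatives covered array weights, the trend, centring, low signals, probe set choice, the arrays in the fit, the rat as a block and each rat left out. The number of arrays limits the precision. The programs were tested on simulated data.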

Additional observations from a re-analysis of the deposited data

Results flagged for a closer look

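Of 280 sets of 4 arrays (a member in an organ, exposure and time), 13 (4.64%) held 1 array that stood far from the other 3 by Dixon's ratio, 6 high and 7 low, where chance gives about 1 in 20. In PH3 groups, Irf7 was high in brain of rat 109 at 1 h (6.59) and low in heart of rat 115 at 1 h (8.60). At 6 h PH3 rat 134 was high for Mx1 in liver (5.92) and low for Mx2 in kidney (4.71).

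In Air groups at 6 h, rat 156 was low for Ifit2 (8.11) and Isg15 (7.63) in heart and for Usp18 in liver (8.95), and rat 126 was high for Rsad2 in kidney (8.93). In Air brains, Mx1 was high in rat 163 at 1 h (5.18), Usp18 low in rat 96 at 1 h (5.70) and Mx2 high in rat 120 at 3 h (5.46). At 24 h Oas1a was high in kidney of Air rat 83 (6.32) and low in lung of Air rat 145 (7.15).

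The exposure effect on Usp18 in heart differed between the 4 times (limma F test, adjusted p = 0.0408).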

How the results depend on the processing

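In heart at 6 h, 2 members passed, but 4 did when the dimmest 1 in 3 genes were dropped, 4 when each array was centred on its median and 5 under array weights. Array weights also gave 1 member in kidney at 6 h, 1 in lung at 3 h and 1 in PH3 brains at 6 h against 1 h and 3 h, where there had been 0. The arrays of 6 h alone gave 3 in liver instead of 0. The counts of all genes below are ranges over the alternatives, so these member counts have no share of all genes under the same setting beside them. The cause was not tested. In the test within PH3 brains the count of all genes called ran from 0 to 225 over the alternatives. Leaving out single rats gave 1 to 2 members in heart at 6 h, 2 to 5 in PH3 hearts at 6 h against 1 h and 3 h, 0 to 1 for the difference between times in heart, and a median change of -0.054 to 0.23 in heart at 24 h. Over the alternatives, the count of all genes called in heart at 6 h ran from 54 to 751 (363 as reported), in kidney at 6 h from 0 to 103 (17), in liver at 6 h from 1 to 161 (32), in lung at 3 h from 22 to 2561 (40) and in the test between times in heart from 33 to 134 (36).

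Some signs turned. Ifit3 within PH3 hearts was 0.023 with array weights and -0.20 to 0.070 without single rats, and Rsad2 there -0.15 to 0.10. Without single rats Ifit3 in heart at 6 h was -0.51 to 0.028, and in liver Rsad2 was -0.26 to 0.00 (0.0035 at its highest) and Bst2 -0.038 to 0.43. Usp18 in heart at 6 h passed under every alternative (adjusted p = 3.56e-05 to 0.0317).

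With the rat as a replicate block, 0 members passed the test between organs at 1, 3, 6 and 24 h, as without it. The correlation within rats was 0.00, 0.01, 0.06 and -0.13 at these times. Within an organ the numbers pair no samples, since each rat had 1 exposure.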

Other observations

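Genes known to respond to glucocorticoids, the adrenal stress hormones, rose in several comparisons, and 0 of the 11 measured fell. Fkbp5, which binds that hormone's receptor as a co-chaperone, rose in PH3 hearts at 1 h (1.94 ± 0.25, limma adjusted p = 0.000176) and 3 h (1.40 ± 0.25, adjusted p = 0.00851), as did Pdk4 (1.26 ± 0.16 and 1.18 ± 0.16). In kidney at 3 h 3 of 11 rose, Fkbp5 (1.58 ± 0.30), Errfi1 (0.69 ± 0.13) and Nfkbia (0.60 ± 0.12), and Errfi1 also rose at 1 h (0.62 ± 0.13) and 24 h (0.95 ± 0.13). In lung at 3 h, against 2 Air rats, 4 of 11 rose, Fkbp5 (2.65 ± 0.36), Nfkbia (1.25 ± 0.24), Klf9 (1.08 ± 0.22) and Errfi1 (1.06 ± 0.21). In brain 1 of 11 rose at 6 h, Mt2A (1.49 ± 0.23). Of all genes, 0.104% were called in either direction in kidney at 3 h, 0.298% in lung at 3 h and 0.00744% in brain at 6 h.

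In the 3 PH3 livers of 3 h, Usp18 averaged 9.57 ± 0.61, Irf7 8.95 ± 0.77, Mx2 6.82 ± 0.90 and Mx1 6.64 ± 1.01 (SD, n = 3). Air livers of that time were not analysed here.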
